A study of Mus musculus with 24 samples.

Results

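The genes described here encode subunits of the mitochondrial respiratory chain and of the ATP synthase. They were chosen by name alone, as every gene name in the scanner files that begins with Nduf followed by a, b, c, s or v and a digit (complex I), that is Sdha, Sdhb, Sdhc or Sdhd (complex II), or that begins with Uqcr (complex III), with Cox4 to Cox8 (complex IV) or with Atp5 (complex V). The rule found 84 of 37008 gene names, carried by 129 of 56605 probes: 37 names in complex I, 4 in complex II, 8 in complex III, 17 in complex IV and 18 in complex V. Some names are older than what is now known of the proteins. Ndufa4 is now counted with complex IV, Atp5s and Atp5sl are now called Dmac2l and Dmac2, and Ndufa4l2 is a paralog of Ndufa4. Atp5c1-ps is a pseudogene of Atp5c1 with a probe of its own, and whether that probe also picks up Atp5c1 was not tested.

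The study took liver and bone marrow from male Erfe-/- mice, which lack erythroferrone, the hormone with which erythroblasts lower hepcidin after blood loss. Every group carries the deletion and no wild-type mice were analysed here, so the comparisons ask what bleeding does in its absence. Phlebotomy was done by retro-orbital puncture, and tissue was taken at 0, 24 and 48 h, from 4 mice at each time, which gives 24 single-colour arrays in 6 groups of 4. The age and strain of the mice are not given in the sources used here, and the p-values measure the spread between the arrays of a group.

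Complexes I and II pass electrons from NADH and succinate to ubiquinone, complex III passes them on to cytochrome c, and complex IV passes them to oxygen. Complexes I, III and IV pump protons, and complex V, the ATP synthase, uses the gradient to make ATP. Hepatocytes are rich in mitochondria. Erythroblasts need the chain while they make heme in their mitochondria, and they discard the organelles as they mature. Nuclear genes for the subunits are known targets of the transcription factors NRF1, GABPA and YY1.

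The promoters were therefore searched for exact matches, on both strands, to 1 motif each of NRF1, GABPA (CCGGAAGT) and YY1, those of NRF1 and YY1 being the capitals in the stretches shown here. RefSeq windows of 300 bases, 250 before and 50 after the transcription start on GRCm38.p6, were at hand for 68 of the 84 genes. The NRF1 motif was in the windows of 5 genes (7.35%), against 1.07% of 27025 genes with a window. The GABPA motif was in 5 (7.35%, against 4.31%) and the YY1 motif in 5 others (7.35%, against 0.755%). No gene held more than 1 of the 3, so 15 genes (22.1%) held any, against 5.93% of all genes. The windows of the respiratory chain genes had a median GC content of 57.3%, against 52.7%, and a match describes letters, not a bound site. The YY1 matches all read on the strand of the gene and began 25 to 36 bases after a RefSeq start. Atp5sl has a further RefSeq start, in whose window the same match begins at base 198 of 300, before that start. They are shown, with the motif in capitals, for this orientation and position:

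Ndufs7, chr10:80249464-80249493, + strand: gccgaggccAAGATGGCGGCgctggcgggt
Ndufs6, chr13:73328433-73328462, - strand: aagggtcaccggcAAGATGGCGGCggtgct
Ndufs4, chr13:114388045-114388074, - strand: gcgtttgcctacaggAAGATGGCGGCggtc
Ndufa9, chr6:126849095-126849124, - strand: ttgtgggagAAGATGGCGGCcgccgtccgc
Atp5sl, chr7:25619431-25619460, + strand: ttacctggcAAGATGGCGGCgcccagagcg

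The NRF1 matches lie in genes of 4 complexes, at positions from -161 to 31, where the start is base 1 and the base before it is 0. The motif is its own reverse complement, so its strand has no meaning. These stretches, with the same marking, show how little the flanking bases share:

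Cox6a1, chr5:115349101-115349130, - strand: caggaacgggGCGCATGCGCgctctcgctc
Ndufa11, chr17:56717692-56717721, + strand: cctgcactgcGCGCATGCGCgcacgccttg
Atp5k, chr5:108434430-108434459, - strand: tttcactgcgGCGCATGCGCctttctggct
Atp5g2, chr15:102671070-102671099, - strand: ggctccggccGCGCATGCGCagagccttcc
Uqcrc1, chr9:108936668-108936697, + strand: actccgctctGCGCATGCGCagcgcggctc

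The GABPA matches were in Atp5h, Cox8a, Ndufs3, Uqcr11 and Uqcrh. Ndufs3, which carries one, is among the genes whose change differed between the tissues below, and its match is on the opposite strand, read here as the capitals ACTTCCGG:

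Ndufs3, chr2:90904703-90904732, - strand: tgcacatttccACTTCCGGtccgtgccctt

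Each level is a log2 value from which the 75th percentile of its own array was subtracted. That percentile lay between 361.2 and 473.1 intensity units in liver and between 715.0 and 954.7 in marrow. On this scale 82 of the 84 genes were measured in each tissue, which required every array of some group to be well above background. All 82 were above background on every marrow array and 81 on every liver array, Cox6a2 being above it on 3 of 4 livers at 48 h. Cox8b and Cox8c, the muscle and testis forms of complex IV subunit VIII, were not measured in either tissue. No spot of these genes was saturated. The tissues carried their defining markers: 8 of 8 hepatocyte genes in every liver and 8 of 8 erythroid and 8 of 8 neutrophil genes in every marrow. Detection alone did not tell the tissues apart. Marrow 0 h replicate 1 also had 8 of 8 hepatocyte genes above background, livers had 6 or 7 of 8 erythroid genes, and some livers had 8 of 8 neutrophil genes. The summed linear levels differed: at most 458 in liver and at least 1280 in marrow for erythroid genes, and 34.6 and 1900 for neutrophil genes.

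One array stands apart. On marrow 24 h replicate 2 the summed linear level of the 8 hepatocyte markers was 1540, against 21.1 to 33.9 on the other marrow arrays and at least 6162 on every liver array. It was also the only array of 24 on which 1 of 2 Erfe probes was well above background, at -2.61; which part of the gene was deleted is not given in the sources used here. The changes in marrow at 24 h are therefore given with it and, in a paragraph of their own, without it.

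Before bleeding, nearly the whole chain was lower in marrow than in liver. Of 82 genes, 77 were called lower in marrow, and 4 higher, by limma at an adjusted p under 0.05. The tissues differ throughout: of the 22768 genes tested 80.3% were called, 40.6% lower in marrow and 39.6% higher. The median over the 82 genes was -1.33 on the log2 scale, a 2.52-fold lower level in marrow, against -0.03 over all genes tested. By complex the medians were 2.68-fold lower for complex I, 3.54-fold for complex II, 3.29-fold for complex III, 2.20-fold for complex IV and 2.41-fold for complex V. The tissues were scaled to different percentiles, and with quantile normalisation the median was -0.83 (all genes 0.07). In bulk tissue, fewer cells of a type and less RNA per cell cannot be told apart, here or in any result that follows.

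The complex III gene Uqcrq, a small subunit named for ubiquinone binding, differed most among the genes lower in marrow. Its unbled livers were at 8.63, 8.56, 8.39 and 8.39 and its unbled marrows at 6.23, 5.62, 6.09 and 5.96, a difference of -2.52 (SE 0.122, 5.73-fold, adjusted p = 8.4e-14). In complex I the difference was largest for Ndufa4l2 at -2.17 (SE 0.287), and Ndufs3, a core subunit of the module that reduces ubiquinone, was at -1.98 (SE 0.0679). In complex II it was Sdhb, the iron-sulphur subunit, at -1.97 (SE 0.129). In complex IV it was Cox7c at -2.20 (SE 0.121), and in complex V Atp5g3, 1 of 3 genes for the subunit c that forms the rotor ring, at -1.99 (SE 0.0861). The smallest differences among the 77 were those of Cox7a2l, a factor that joins complexes III and IV, at -0.31, and Ndufb7 at -0.33. In each of these genes the 4 marrow and 4 liver arrays did not overlap. Groups without overlap were the rule at 0 h, with 77 genes lower in marrow (38.4% of all genes) and 3 higher (37.8%).

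**Figure D1:**
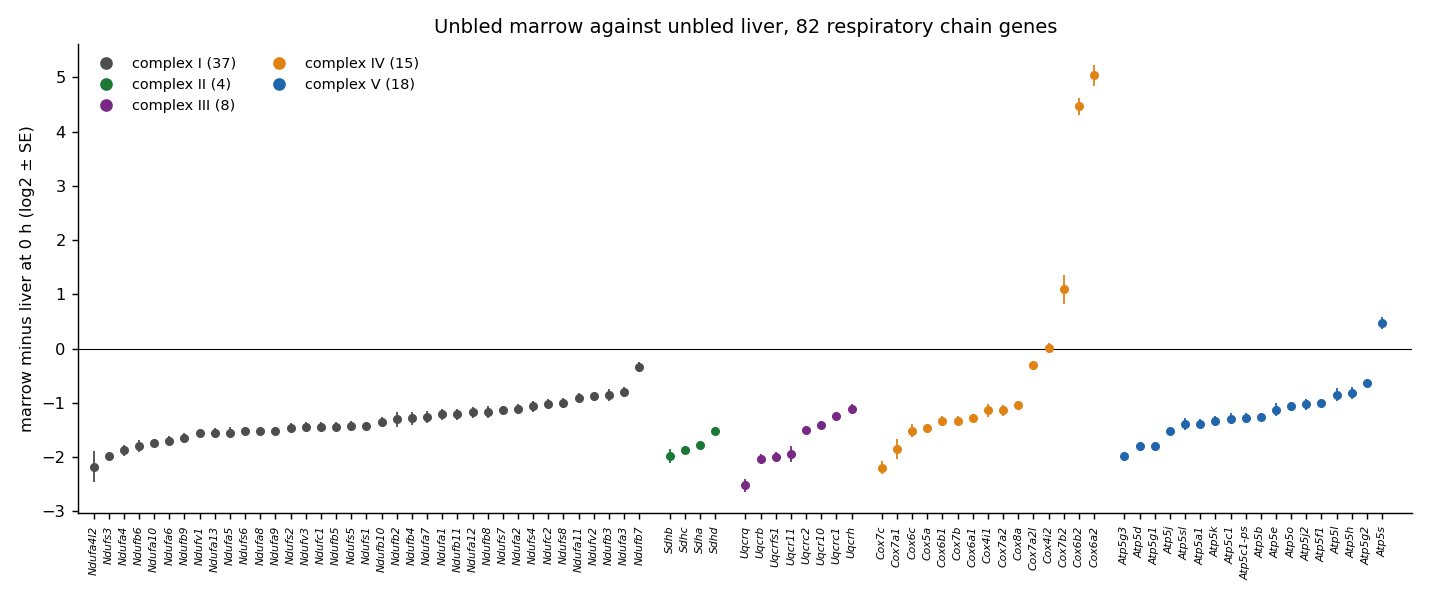
Difference between unbled marrow and unbled liver (log2, marrow minus liver at 0 h, y axis) for each of 82 respiratory chain genes, ordered within the complexes on the x axis and coloured by complex, with the SE of the fit over 24 arrays as bars. Complexes I, II and III lie wholly below 0, and the exceptions above 0 are Cox6a2, Cox6b2, Cox7b2 and Cox4i2 in complex IV and Atp5s in complex V.

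The exceptions were almost all tissue-restricted forms of complex IV subunits. Cox6a2, the form of subunit VIa known from heart and skeletal muscle, was at 1.86, 1.96, 1.61 and 1.94 in unbled marrow and at -3.28, -3.20, -3.51 and -2.78 in unbled liver, a difference of 5.04 (SE 0.187, adjusted p = 1.43e-15). It was the dimmest measured gene of the chain in liver, so the size depended on the processing. Over 19 alternatives the difference ran from 3.87 to 5.17, and the call was kept in all of them. Cox6b2, a form of subunit VIb known from testis, was at 1.88, 2.01, 1.98 and 2.23 in marrow and at -1.91, -2.49, -2.89 and -2.48 in liver, a difference of 4.47 (SE 0.158, 22.1-fold, adjusted p = 7.36e-16). Both probes separated the tissues by more than 3 log2 units on every array. Their widely expressed counterparts were lower in marrow on their own probes, Cox6a1 at -1.28 (SE 0.0791) and Cox6b1 at -1.33 (SE 0.0918). Cox7b2 was higher in marrow by 1.09 (SE 0.263, adjusted p = 0.000751), with marrow arrays from -1.86 to -1.03 and liver arrays from -3.00 to -1.84, which overlap. Cox4i2, the form of subunit IV known from lung, was at 0.01 (SE 0.0963, adjusted p = 0.899), while Cox4i1 was at -1.14 (SE 0.112).

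In the other families of paralogs the same-probe differences had 1 sign. Cox7a1, a muscle form, was at -1.85 and Cox7a2 at -1.13, and Cox8a was at -1.04. The subunit c genes Atp5g1, Atp5g2 and Atp5g3 were at -1.80, -0.63 and -1.99, all called lower in marrow. Atp5s, named for a coupling factor of the ATP synthase, was higher in marrow by 0.48 (SE 0.112, adjusted p = 0.000598), but by 0.03 with normexp background correction, which ended that call (adjusted p = 0.691).

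**Figure D2:**
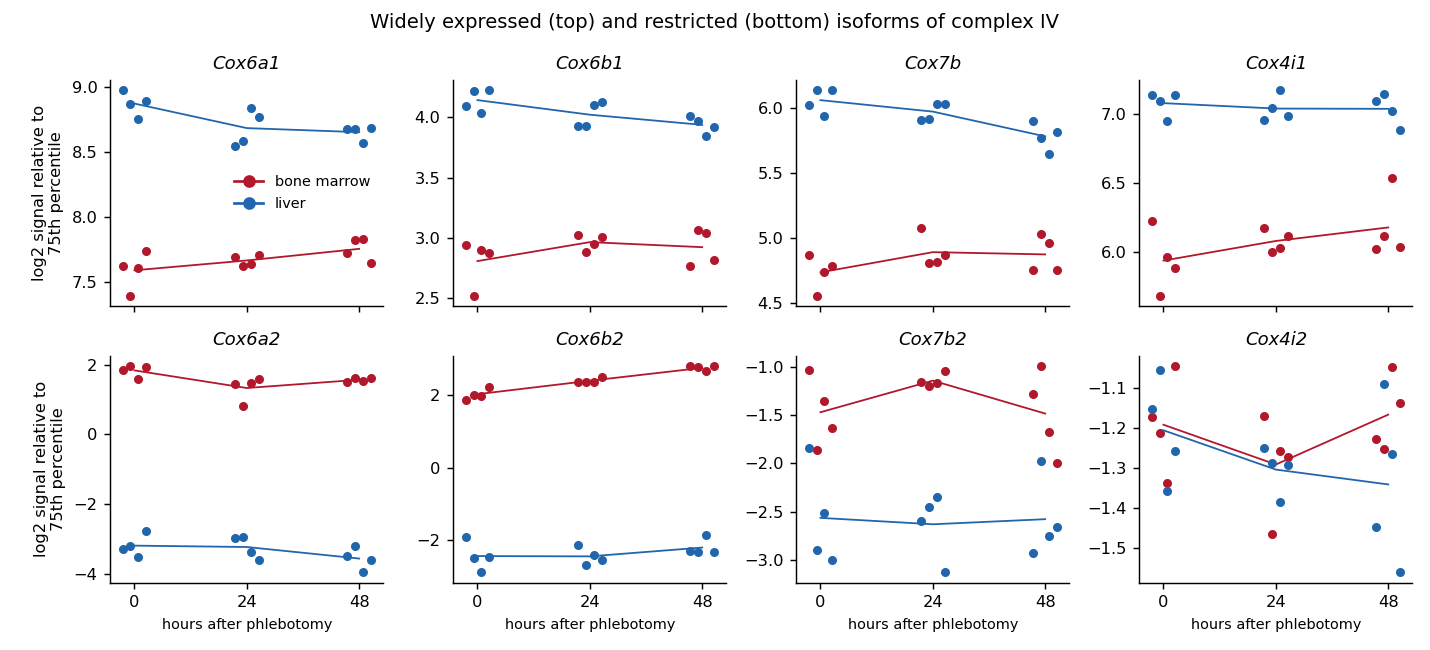
Level of 8 complex IV genes on each array (log2, 75th percentile of the array at 0, y axis, own scale per panel) at 0, 24 and 48 h, with points for arrays and lines through the group means, marrow red and liver blue. In the upper row (Cox6a1, Cox6b1, Cox7b, Cox4i1) the livers lie above the marrows, and in the lower row Cox6a2 and Cox6b2 show the reverse at every time.

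After bleeding, the chain as a group stood slightly higher in marrow, with 1 gene past the threshold. At 24 h, limma called 0 of 82 genes (at an unadjusted p under 0.05, 18 were higher, against 5.75% of all genes, and 1 lower, against 6.86%), against 1.01% of 21381 genes tested (0.552% higher, 0.463% lower). Of the 82 fitted changes 76 were above 0, with a median of 0.15 against -0.02 over all genes. At 48 h, 1 of 82 was called, Cox6b2, against 1.23% of all genes (1.06% higher, 0.173% lower). At an unadjusted p under 0.05, 20 were higher, against 10.2% of all genes, and 1 lower, against 5.88%. There, 73 of 82 were above 0, with a median of 0.15 against 0.00. Other settings moved these values, some of them nearer 0. With quantile normalisation 68 genes were above 0 at 24 h, with a median of 0.09, and 62 at 48 h, with a median of 0.08. With array weights the 48 h median was 0.05 (56 of 82 above 0), against 0.02 over all genes. At an unadjusted p under 0.05, 23 were then higher at 24 h, against 10.5% of all genes, and 12 at 48 h, against 14.5%. With arrays centred on the median the 24 h median was 0.21 (78 above 0), against 0.04 over all genes, and the 48 h median 0.15. That scaling left 16 higher at 24 h, against 6.44% of all genes, and 8 at 48 h, against 6.86%, at an unadjusted p under 0.05. Both times are compared with the same 4 unbled marrows, and between 24 and 48 h the median was -0.02 with 0 of 82 called in either direction, against 0.00468% of all genes.

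Groups that do not overlap gave another view of the same changes. At 24 h, all 4 bled marrows lay above all 4 unbled marrows for 17 of the 82 genes, against 4.14% of all genes, and below them for 1, Cox6a2, against 4.13%. At 48 h this held for 11 above, against 8% of all genes, and for 1 below, Atp5sl, against 4.7%. With arrays centred on the median, 21 lay above at 24 h, against 4.71%, and 5 at 48 h, against 4.56%. Single arrays moved these counts. Fewer arrays in a group make separation easier for any gene, so the share of all genes is given beside each count. Without marrow 0 h replicate 1, 40 genes lay above without overlap at 24 h, against 6.27% of all genes, and 22 at 48 h, against 10.5%. At 48 h it was 17 without marrow 48 h replicate 1, against 9.9%, and 11 without marrow 48 h replicate 3, against 13.2%. The count higher at an unadjusted p under 0.05 fell without some arrays. Without marrow 0 h replicate 2 it was 7 at 24 h, against 3.88% of all genes, and 9 at 48 h, against 7.35%. It was 10 at 24 h without marrow 24 h replicate 1 or 4, against 4.32% and 4.63%. At 48 h it was 11 without marrow 48 h replicate 2 or 3, against 6.94% and 11.5%.

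Without marrow 24 h replicate 2, the array with hepatocyte markers, limma again called 0 of 82 genes at 24 h. At an unadjusted p under 0.05, 18 were higher, against 7.34% of all genes, and 1 lower, against 4.79%. The median was 0.18, with 77 above 0 and 25 genes above without overlap, against 8.72% of all genes, where 3 arrays face 4. By complex the medians were 0.16, 0.16, 0.22, 0.16 and 0.18 for complexes I to V. Of the genes described here, Cox6b2 was at 0.38 (adjusted p = 0.115), Ndufs1 at 0.29 (0.117), Ndufa5 at 0.38 (0.249), Ndufs3 at 0.25 (0.196), Sdhc at 0.21 (0.289) and Uqcrb at 0.29 (0.383). The 11 subunits encoded in mitochondrial DNA had a median of 0.07 without it, against 0.15 with it.

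The array medians overlapped between the times. Taken over the 82 genes as deviations from the unbled mean, they were 0.13, -0.20, 0.06 and 0.00 at 0 h, 0.24, 0.11, 0.13 and 0.15 at 24 h and 0.04, 0.22, 0.30 and 0.02 at 48 h. The unbled marrow replicate 2 was low as a whole, with 79 of 82 genes below the mean of its group. Without it the median change was 0.09 at 24 h (67 of 82 above 0) and 0.08 at 48 h (62 of 82), and without marrow 48 h replicate 3, the highest at that time, the 48 h median was 0.10 (63 of 82). Within each of the 3 slides the median was 0.28, 0.04 and 0.14 at 24 h and 0.07, 0.20 and 0.04 at 48 h. The summed level of the 6 B cell markers was 38.8 to 63.9 at 0 h, 26.1 to 40.3 at 24 h and 26.9 to 50.6 at 48 h, and that of the 8 erythroid markers 1280 to 1602, 1348 to 1466 and 1442 to 1761. The 6 monocyte and macrophage markers, 4 to 6 of them above background, summed to 51.3 to 54.2 at 0 h, 42.0 to 51.8 at 24 h and 39.4 to 47.6 at 48 h, so the 48 h marrows lay below the unbled ones without overlap. The part of these cell types in the result was not tested.

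**Figure D3:**
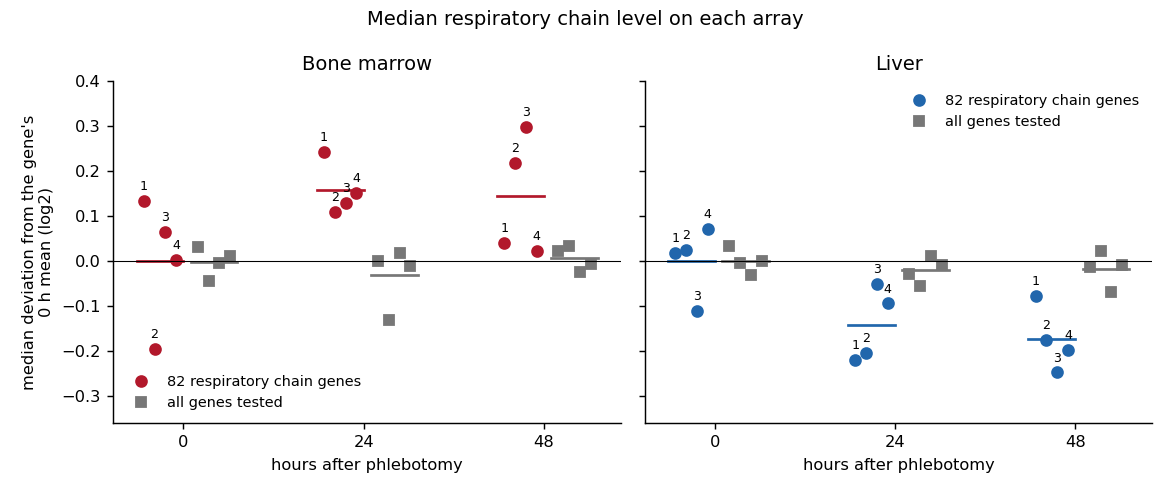
Median over 82 respiratory chain genes (coloured circles, numbered by replicate) and over all genes tested (grey squares) of the deviation from each gene's unbled mean (log2, y axis), for each array at 0, 24 and 48 h, with group means as bars, marrow left and liver right. Marrow means lie above 0 after bleeding and liver means below it, and single arrays of different times overlap in both tissues.

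The marrow changes were read by complex, with no test between complexes. All 37 genes of complex I, all 4 of complex II and all 8 of complex III had a fitted change above 0 at 24 h, as did 11 of 15 in complex IV and 16 of 18 in complex V. The medians at 24 h were 0.15, 0.15, 0.21, 0.14 and 0.16 for complexes I to V, and at 48 h 0.13, 0.14, 0.22, 0.12 and 0.17. None of these counts includes a call other than Cox6b2 at 48 h.

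Cox6b2 rose in marrow. Its arrays were at 1.88, 2.01, 1.98 and 2.23 at 0 h, 2.36, 2.36, 2.35 and 2.51 at 24 h, and 2.79, 2.77, 2.65 and 2.79 at 48 h. No array of one time overlapped with those of another, and the 48 h arrays were the highest. The change at 48 h was 0.73 (SE 0.0852, 1.65-fold, adjusted p = 0.00222 by limma), while that at 24 h was 0.37 (SE 0.0852, adjusted p = 0.0738). The call at 48 h held in 21 of 21 alternatives, with values from 0.67 to 0.79, and within the slides the 48 h difference was 0.85, 0.72 and 0.56. In liver the gene was at -2.89 to -1.91 at 0 h and -2.34 to -1.85 at 48 h, a change of 0.24 (SE 0.198, adjusted p = 0.918). The difference between its changes in the tissues was 0.49 (SE 0.22) with an adjusted p of 0.348, so the rise was not shown to differ from that in liver. Its single probe lies on mm9 at chr7:4703488-4703547 on the - strand.

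Cox6a2 did not pass the test. Its marrows were at 1.86, 1.96, 1.61 and 1.94 at 0 h, 1.44, 0.83, 1.47 and 1.61 at 24 h and 1.52, 1.62, 1.53 and 1.62 at 48 h. The 24 h arrays lay below the unbled ones, the lowest being replicate 2, which carried the hepatocyte markers. The change at 24 h was -0.51 (SE 0.151, adjusted p = 0.169) and -0.34 without that replicate (adjusted p = 0.17). The summed level of 8 skeletal muscle markers went the other way, from 1.26 to 1.64 at 0 h (3 to 6 of 8 above background) to 1.71 to 2.80 at 24 h (5 to 8 of 8), and its part was not tested.

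In complex I the smallest adjusted p belonged to Ndufs1, the largest core subunit, which carries iron-sulphur clusters of the arm that oxidises NADH. It was at 3.36, 3.42, 3.41 and 3.39 at 0 h, 3.74, 3.69, 3.65 and 3.67 at 24 h and 3.65, 3.83, 3.61 and 3.72 at 48 h. The unbled marrows were within a narrow range and all 8 bled marrows were above it. The changes were 0.29 (SE 0.0673, adjusted p = 0.0719) and 0.30 (adjusted p = 0.057). Ndufa5, an accessory subunit next to the ubiquinone site, had the largest change of complex I among genes without overlap, 0.38 at 24 h (SE 0.115, adjusted p = 0.183), from 4.80, 4.55, 4.89 and 4.71 to 5.34, 5.09, 4.95 and 5.07.

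In the other complexes the genes picked out by their separation were also short of the threshold. For Sdhc, a membrane anchor of complex II, the marrows went from 2.41, 2.23, 2.25 and 2.30 at 0 h to 2.50, 2.48, 2.50 and 2.51 at 24 h, a change of 0.20 (SE 0.0698, adjusted p = 0.244). For Uqcrb, the ubiquinone-binding protein of complex III, they went from 5.07, 4.75, 5.05 and 4.89 to 5.39, 5.27, 5.20 and 5.11, a change of 0.30 (SE 0.113, adjusted p = 0.294). In both the groups lay close to each other without overlapping. For Atp5s the 48 h change was 0.34 (SE 0.094, adjusted p = 0.11), from a range of -2.28 to -2.02 to one of -1.95 to -1.70. Atp5sl, now known as an assembly factor of the membrane arm of complex I, was the one gene below 0 without overlap at 48 h, at -0.25 (SE 0.0832, adjusted p = 0.17), from 1.35 to 1.63 at 0 h to at most 1.29.

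**Figure D4:**
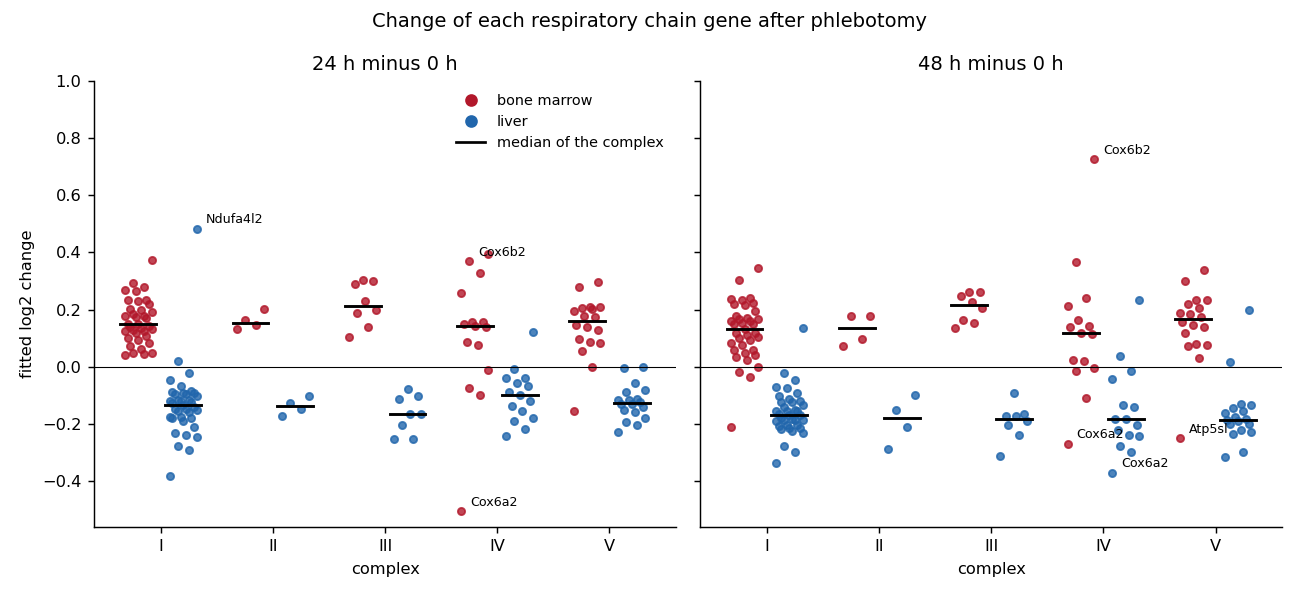
Fitted log2 change (y axis) of each of 82 respiratory chain genes at 24 h (left) and 48 h (right) after phlebotomy, by complex I to V (x axis), marrow red and liver blue, 1 point per gene, with the median of each complex as a bar. The marrow medians lie between 0.12 and 0.22 and the liver medians between -0.19 and -0.10, and Cox6b2 in marrow at 48 h, at 0.73, is the 1 point past the threshold.

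In liver the chain stood slightly lower after bleeding, with no gene past the threshold. At 24 h limma called 0 of 82 genes, against 0% of 19639 genes tested, while 24 were lower and 0 higher at an unadjusted p under 0.05, against 5.97% lower and 4.93% higher over all genes. Of the fitted changes 79 of 82 were below 0, with a median of -0.13 against -0.02 over all genes. At 48 h limma again called 0 of 82 and 0% of all genes. There, 45 genes were lower and 0 higher at an unadjusted p under 0.05, against 3.89% lower and 2.56% higher over all genes, 77 were below 0, and the median was -0.18 against -0.02. The smallest adjusted p at 48 h was 0.514, that of Uqcrb. Groups without overlap counted 9 genes lower at 24 h, against 3.23% of all genes, and 21 at 48 h, against 2.44%, and 0 genes higher at either time, against 2.29% and 1.77%. These counts depended on the scaling. With arrays centred on the median, 6 genes were lower at an unadjusted p under 0.05 at each time, against 4.23% and 1.72% of all genes. With that scaling 0 at 24 h and 7 at 48 h lay lower without overlap, against 1.69% and 1.01%. Between 24 and 48 h limma called 0 of 82 genes and 0% of all genes, with a median of -0.03.

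Single arrays moved the liver counts as well. The count lower at 24 h at an unadjusted p under 0.05 fell without some arrays. It was 7 without liver 0 h replicate 4 or liver 24 h replicate 1, against 4.61% and 3.68% of all genes. It was 10 without liver 0 h or 24 h replicate 2, against 4.89% and 3.54%, and 15 without liver 0 h replicate 1, against 4.92%. At 48 h it was 18 without liver 48 h replicate 3, against 2.43% of all genes. It was 19 without liver 0 h replicate 4, against 2.97%, and 24 without liver 0 h replicate 2, against 3.63%. Separation is easier for any gene when a group has fewer arrays. Without liver 0 h replicate 3 the genes lower without overlap numbered 42 at 24 h, against 6.34% of all genes, and 52 at 48 h, against 5.63%. They numbered 21 and 15 at 24 h without liver 24 h replicate 3 or 4, against 6.62% and 6.18%. Without liver 48 h replicate 1 they numbered 49 at 48 h, against 5.72%.

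The liver medians by complex were not tested against each other. At 24 h they were -0.13, -0.14, -0.17, -0.10 and -0.13 for complexes I to V, and at 48 h they were -0.17, -0.18, -0.18, -0.18 and -0.19. The array medians were 0.02, 0.02, -0.11 and 0.07 at 0 h, -0.22, -0.20, -0.05 and -0.09 at 24 h and -0.08, -0.18, -0.25 and -0.20 at 48 h. The unbled liver replicate 3 overlapped with bled livers, and the other 3 unbled livers did not. Within the slides the median change was -0.24, -0.10 and -0.15 at 24 h and -0.10, -0.09 and -0.28 at 48 h. The summed level of the erythroid markers in liver, with 6 or 7 of 8 above background, was 201 to 252 at 0 h, 293 to 319 at 24 h and 291 to 458 at 48 h, without overlap between bled and unbled mice; its part in the result was not tested.

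The genes named from liver were the most changed of each complex among those without overlap, so their separation was fixed by this choice. They show how small the changes in liver were. Uqcrb was at 7.02, 6.97, 6.86 and 7.06 at 0 h and 6.72, 6.66, 6.59 and 6.67 at 48 h, a change of -0.31 (SE 0.0714). Ndufb3, an accessory subunit of the membrane arm of complex I, was at 5.24, 5.37, 5.07 and 5.46 and then 5.03, 4.91, 4.84 and 5.02, a change of -0.34 (SE 0.108, adjusted p = 0.634). In each the bled livers lay just below the unbled ones. Sdha, the flavoprotein that oxidises succinate, was at -0.21 (SE 0.0809), Cox7c at -0.30 (SE 0.0759) and Atp5g3 at -0.30 (SE 0.0781), each without overlap at 48 h.

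Ndufa4l2, known to be induced by hypoxia, stood apart from the rest in liver. Its livers were at 0.64, 0.53, -0.56 and -0.49 at 24 h, against -0.60 to -0.35 at 0 h. A pair of arrays was high and the other pair was within or near the unbled range, and the change of 0.48 (SE 0.265) had an adjusted p of 0.52. Cox7a1 was also highest on these arrays at 24 h, at 0.99 and 0.70 on replicates 1 and 2 against 0.28 and 0.16, with a change of 0.12 (SE 0.215). This likeness was noticed after the values were seen.

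The tissues were then compared in their change after bleeding, as the marrow change minus the liver change in a fit over all 24 arrays. At 24 h limma called 3 of 82 genes, all with the marrow change above the liver change, against 0.307% of 18227 genes called in that direction and 0.187% in the other (0.494% in all). At 48 h it called 6, again in that direction, against 0.719% and 0.0713% (0.79% in all). The difference was above 0 for 75 of 82 genes at 24 h, with a median of 0.31 against 0.00 over all genes, and for 78 at 48 h, with a median of 0.33 against 0.03. At an unadjusted p under 0.05, 54 genes were higher and 0 lower at 24 h, against 6.97% and 5.78% of all genes, and 55 were higher and 0 lower at 48 h, against 8.65% and 4.22%. The unbled arrays enter both times, so the times are not independent. A marrow change above 0 was joined to a liver change below it in 74 of 82 genes at 24 h and in 71 at 48 h. These counts follow largely from the signs in each tissue given above, and the share over all genes was not computed.

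The 3 genes called at 24 h belong to the peripheral arm of complex I. Ndufs1 differed by 0.54 (SE 0.109, adjusted p = 0.0285), Ndufa5 by 0.66 (SE 0.143, adjusted p = 0.0381) and Ndufs3 by 0.44 (SE 0.0958, adjusted p = 0.0429). All 3 were also called at 48 h, at 0.51, 0.64 and 0.43, with adjusted p from 0.0327 to 0.0405. The marrow values of Ndufs3 were 4.02, 4.00, 4.07 and 4.12 at 0 h, 4.40, 4.42, 4.20 and 4.30 at 24 h and 4.29, 4.24, 4.37 and 4.26 at 48 h. Its liver values were 6.03, 5.99, 5.94 and 6.17, then 5.79, 5.77, 5.98 and 5.96, then 5.87, 5.84, 5.79 and 5.87. The bled marrows were all above the unbled ones, and the livers overlapped at 24 h. For Ndufs1 the livers were at 4.71, 4.76, 4.79 and 5.01 at 0 h, 4.45, 4.54, 4.62 and 4.69 at 24 h and 4.79, 4.46, 4.61 and 4.59 at 48 h, and for the Ndufa5 probe of this fit they were at 6.14, 6.41, 6.16 and 6.42, then 6.05, 5.96, 5.92 and 6.05, then between 5.88 and 6.14. In these genes the livers lay lower at 24 h without overlap.

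At 48 h, 3 genes of the ATP synthase were called as well. Atp5b, the catalytic beta subunit, differed by 0.48 (SE 0.0999, adjusted p = 0.0289). Its marrows were at 6.49, 6.21, 6.38 and 6.41 at 0 h and 6.64, 6.74, 6.68 and 6.63 at 48 h, and its livers at 7.57, 7.66, 7.56 and 7.76 and then 7.59, 7.41, 7.40 and 7.45. The marrows were separated and the livers overlapped by 1 array. The subunit c genes Atp5g1 and Atp5g3 differed by 0.43 (SE 0.0961, adjusted p = 0.0395) and 0.53 (SE 0.121, adjusted p = 0.0409), while the other gene for subunit c, Atp5g2, was at 0.16 (adjusted p = 0.554). For Atp5g1 the livers were at 6.93, 6.93, 6.96 and 7.04 at 0 h and 6.85, 6.80, 6.72 and 6.70 at 48 h, and the marrows at 5.22, 5.03, 5.17 and 5.27 and then 5.26, 5.48, 5.54 and 5.34. For Atp5g3 the livers were at 7.73, 7.89, 7.56 and 7.78 and then 7.53, 7.46, 7.38 and 7.39, and the marrows at 5.90, 5.55, 5.89 and 5.67 and then 5.91, 6.08, 6.11 and 5.86. In both genes the livers were separated and the marrows overlapped.

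**Figure D5:**
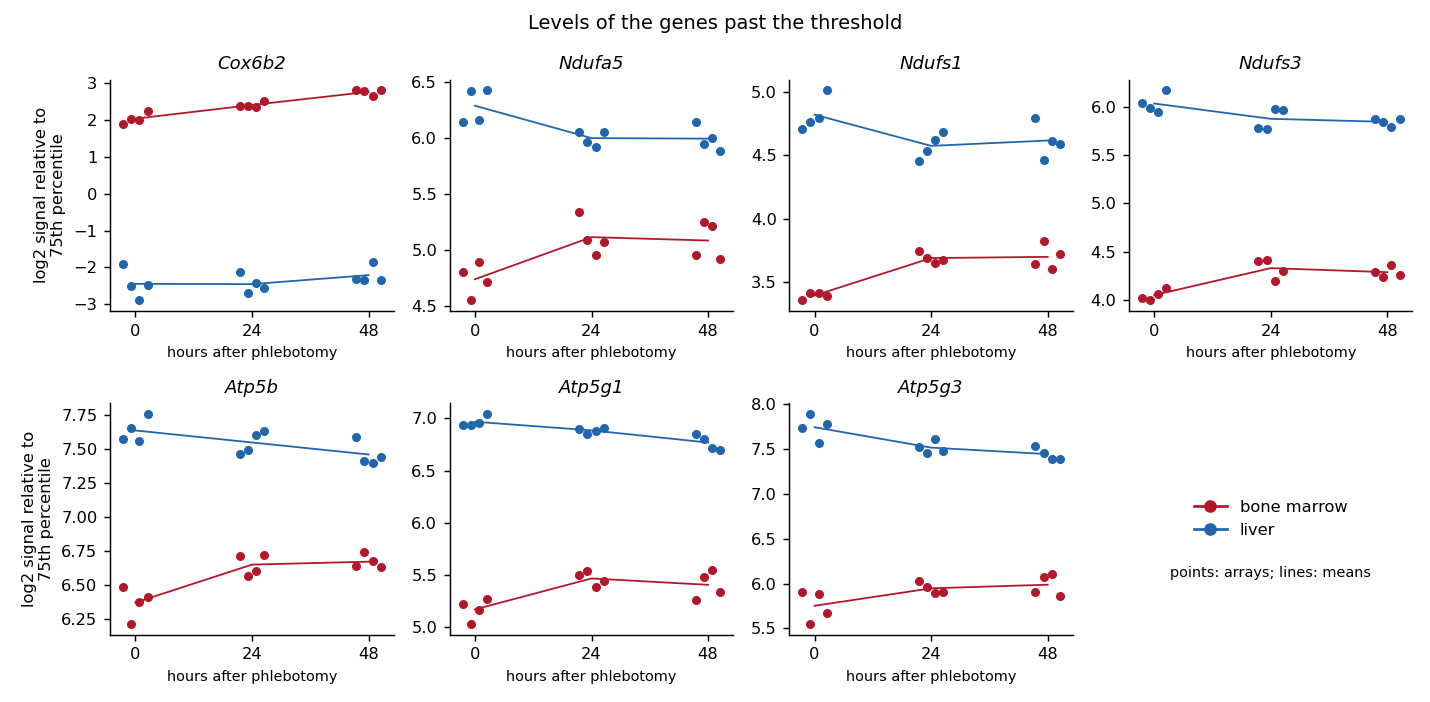
Level on each array (log2, 75th percentile of the array at 0, y axis, own scale per panel) of the 7 genes past an adjusted p of 0.05 in a time contrast or in the difference between tissues, at 0, 24 and 48 h, with points for arrays and lines through group means, marrow red and liver blue. Cox6b2 increases in marrow from 2.02 to 2.75, and in the other panels the marrow line goes up from 0 to 24 h and the liver line down.

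These 9 calls were close to the threshold. The design gives 4 mice per time, and whether a replicate number marks the liver and marrow of 1 mouse is not given in the sources used here. With number and time as a block, 6 genes were called at 24 h and 11 at 48 h. Across 27 alternatives the direction of all 9 was kept, but the number of genes called ranged from 0 to 8 at 24 h and from 0 to 12 at 48 h. At 24 h, 0 genes were left without any 1 of liver 0 h replicate 4, liver 24 h replicates 1 or 2, marrow 0 h replicates 1, 2 or 4 or marrow 24 h replicate 1; 1 was left without liver 0 h replicate 2 or marrow 24 h replicates 2 or 4, and 5 were called without liver 24 h replicate 3. At 48 h, 0 were left without any 1 of liver 0 h replicates 2 or 4, liver 48 h replicates 2, 3 or 4, marrow 0 h replicate 2 or marrow 48 h replicate 2; 2 were left without marrow 0 h replicate 3 or marrow 48 h replicate 3, and 3 without replicate 1 of marrow at 0 h or at 48 h.

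Other probes of the same genes did not all follow. The second Ndufa5 probe gave 0.41 and 0.38 in marrow at 24 and 48 h, like the first. It lies on mm9 at chr6:24468666-24468725 and overlaps the first probe, so their likeness is no separate evidence. A further Uqcrb probe gave -0.19 in marrow at 24 h and 0.06 in liver at 48 h, and the mean of its probes 0.16 and -0.16. The second Ndufs1 probe gave 0.05 and -0.05 in marrow and 0.09 and 0.01 in liver. The second Ndufs3 probe gave -0.20 and -0.27 in marrow, with an SE of 0.303, and was not measured in liver. The second Atp5g3 probe gave -0.11 and 0.02 in marrow and -0.19 and -0.11 in liver. The measured probes of Atp5g1 did not all have the same sign in liver at 48 h. With the probes of a gene averaged, the difference between tissues for Ndufs1 was 0.25 at 24 h and 0.22 at 48 h, and that for Atp5g3 at 48 h was 0.26. Of the 82 genes, 29 had several measured probes in marrow, and in 18 of them all probes had the same sign at 24 h and in 21 at 48 h. In liver it was 24 and 23 of 28. On mm9, the probes that made these calls lie at chr1:63190360-63190419 for Ndufs1, chr2:90734793-90734852 for Ndufs3, chr6:24468691-24468750 for Ndufa5, chr11:95934315-95934374 for Atp5g1 and chr2:73746519-73746578 for Atp5g3, all on the - strand, and at chr10:127527255-127527314 on the + strand for Atp5b.

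Genes around the chain were read as lists beside it. The 11 subunits encoded in mitochondrial DNA had a median change of 0.15 in marrow at 24 h (9 above 0) and 0.02 at 48 h (7 above 0), and all 11 were below 0 in liver at both times, at -0.14 and -0.11. The 13 enzymes of the tricarboxylic acid cycle, which feeds the chain, were above 0 in marrow for 12 at 24 h and 13 at 48 h, with a median of 0.12 at each time, and below 0 in liver for 12 and 13, at -0.14 and -0.17. The 47 assembly factors were nearer 0, at 0.07 and 0.09 in marrow and -0.05 and -0.07 in liver. The 18 measured regulators of mitochondrial biogenesis were at 0.01 and 0.02 in marrow, and the 19 measured in liver at -0.07 (15 below 0) and -0.05 (14 below 0). In the lists, 0 genes were called at 24 or 48 h in either tissue. In the difference between tissues at 48 h, where 0.719% of all genes were called with the marrow change above the liver change, 1 of 6 genes for cytochrome c and for subunits outside the name rule was called, Ndufab1, the mitochondrial acyl carrier protein and a complex I subunit, at 0.52 (SE 0.12, adjusted p = 0.0459). Among the assembly factors 2 of 47 were called, Cox11, which delivers copper to complex IV, at 0.65 (SE 0.129, adjusted p = 0.0216), and Ndufaf4, of complex I, at 0.64 (SE 0.148, adjusted p = 0.0434). At 0 h, 10 of the 11 mitochondrially encoded subunits were called lower in marrow, against 40.6% of all genes, with a median of -2.38.

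The genes with a promoter match were read by their signs, with no test. The 5 with the NRF1 motif and the 5 with the GABPA motif were above 0 in marrow and below 0 in liver at both times, with none called. Of the 5 with the YY1 motif, 4 were above 0 in marrow at 24 h and 3 at 48 h, and 5 and 4 were below 0 in liver. Nearly all of the 82 genes had these signs, with or without a motif. At 24 and 48 h, 76 and 73 of the 82 were above 0 in marrow, and 79 and 77 were below 0 in liver. The signs therefore do not set the genes with a motif apart. The window of Cox6b2 held none of the 3 motifs, and neither did those of Atp5b, Atp5g1, Atp5g3 and Ndufa5.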

How the data were processed

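RNA from 12 livers and 12 marrows was hybridised to 24 arrays, 1 per sample, grouped by the sample titles. The authors deposited scanner files whose processed intensity is background subtracted by Agilent Feature Extraction 10.10.1.1, per the file headers, and not normalised between arrays. They also deposited a table of log2 values; how it was made is not given in the sources used here, and it served only as an alternative.

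After taking log2 of the intensity, the 75th percentile over all non-control spots of that array was set to 0. Spots marked as outliers were left out and spots of a probe averaged. Probes entered a tissue's fit if every array of some group was well above background there, and the brightest such probe on average stood for its gene. Changes were tested with limma 3.58.1 in R 4.3.3 (lmFit, eBayes, two-sided, Benjamini-Hochberg over all genes tested, threshold 0.05): 12 arrays per tissue for times, 24 for differences between tissues. With 4 arrays against 4 an exact permutation test cannot go below 0.0286. The script was tested on simulated data.

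Values on each array are given for genes past the threshold, the most changed gene without overlap per complex and tissue, paralogous subunits and the largest tissue differences. The members, lists, motifs and this rule were chosen with earlier results of these data known. The alternatives were quantile and median scaling, normexp, the probe filter, probes per gene, the slide and the replicate number as blocks, trended and robust variances, array weights, only the arrays compared, the authors' table and leaving out each array.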

Additional observations from a re-analysis of the deposited data

Results flagged for a closer look

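Groups of 4 arrays were tested for named genes called or picked by separation and for the median over the respiratory chain genes. Of 96 such groups, 3 had an array far from the other 3, where chance gives about 1 in 20 groups. Cox6b2 was at -1.85 on liver 48 h replicate 3 (mean of the others -2.33) and at 2.51 on marrow 24 h replicate 4 (others 2.36). Cox7c was at 5.41 on liver 0 h replicate 3 (others 5.61).

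The change after bleeding differed between marrow and liver, by limma's interaction test, for 3 genes at 24 h: Ndufa5 by 0.66, Ndufs1 by 0.54 and Ndufs3 by 0.44. At 48 h it differed for 6: Atp5b by 0.48, Atp5g1 by 0.43, Atp5g3 by 0.53, Ndufa5 by 0.64, Ndufs1 by 0.51 and Ndufs3 by 0.43.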

How the results depend on the processing

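No named gene, and no median at 24 or 48 h against 0 h, changed sign in the alternatives. When every probe was tested, a named gene was read only on the probe that stood for it, so that setting could not change its sign. Other probes of Uqcrb, Ndufs1, Ndufs3, Atp5g1 and Atp5g3 had the opposite sign in some comparisons, as given above. The medians between 24 and 48 h lay near 0 and ran from -0.08 to 0.02 in marrow and from -0.06 to 0.01 in liver. The count of genes called in marrow was 2 at both times with trended and robust variances and 5 at both with array weights, and 2 at 48 h when every probe was tested. Leaving out single arrays gave 0 to 1 at 24 h (1 without marrow 0 h replicate 4) and 1 at 48 h. Array weights also brought Atp5s in marrow at 48 h past the threshold (0.31). In liver the count was 0 at both times in 21 of 21 alternatives. For the difference between tissues, the count at 24 and 48 h was 1 and 0 with quantile normalisation, 0 and 0 with median centring, 1 and 2 with normexp, 0 and 0 without a probe filter and 8 and 12 with array weights. It was 1 at 24 h with the slide as a block and 3 at 48 h with probes of a gene averaged. Leaving out single arrays gave 0 to 5 and 0 to 6. Leaving out an array leaves fewer samples, and dropping the filter adds genes to the test. Leaving out also moved the estimates, that of Ndufa5 at 24 h between 0.59 and 0.72. Why calls were lost or gained was not tested. Same-numbered arrays of different times correlated in their deviations at -0.24 to 0.13 in liver and -0.25 to 0.19 in marrow, so replicate numbers were not taken to pair them. For the 2 tissues of a time all 12 correlations were above 0, from 0.03 to 0.21, and 7 were over 0.1, so pairing by mouse was neither shown nor refuted. With the replicate number as a block the counts were 0 and 1 in marrow, 0 and 0 in liver, 6 and 11 for the difference between tissues and 81 for the tissues at 0 h. The median tissue difference at 0 h was -0.83 with quantile normalisation and -1.38 to -1.26 leaving out single arrays. The 4 arrays per group limit the precision: the median SE of a marrow change at 24 h was 0.10.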
